A study of Mus musculus with 6 samples.

Results

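The tricarboxylic acid cycle is the mitochondrial pathway that oxidizes acetyl groups to carbon dioxide and passes the electrons to the respiratory chain. It also supplies carbon for lipids, amino acids and nucleotides, and several of its steps exist as separate mitochondrial and cytosolic enzymes. In tumors it attracts attention because loss of fumarate hydratase and mutation of isocitrate dehydrogenase genes raise metabolites that interfere with oxygen-sensing and demethylating enzymes. The genes described are 9 enzymes of this cycle, Cs, Idh3a, Idh2, Idh1, Ogdh, Suclg1, Fh1, Mdh1 and Mdh2, taken by gene symbol from a table of 51912 gene IDs. All 9 were found and tested, among 9287 genes whose mean over the libraries was 1 TPM or more.

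RNA came from organoids of mouse bladder tumors, strain C57BL/6, which are cultures that grow tumor cells in a gel as small clusters. There were 3 libraries of organoids given SRT1720, a small molecule described as activating SIRT1, a protein deacetylase, and 3 libraries of organoids given vehicle. The series title places the compound in a link between SIRT1 and the hypoxia-inducible factors (HIF), which respond to low oxygen. The labels used here state no dose, exposure time, tumor model or number of animals, and do not say whether replicates were separate cultures. Each p-value thus reflects the scatter among these libraries, and how far that scatter is technical is not known.

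Values are given in the unit that the deposited table calls TPM, a level scaled by gene length and by library, and means are ± SD over the 3 libraries of a group. A run of 3 values lists replicates 1, 2 and 3 in that order. The values correspond to 18244857 to 22833428 reads per library, and each member value rests on 693 to 12602 reads. The epithelial genes Epcam and Cdh1 had means of 125 ± 59.3 and 37.7 ± 16.2 TPM with SRT1720 and 109 ± 59.1 and 35.9 ± 21.0 TPM with vehicle. A mean of 1 TPM was reached by 2 of 8 leukocyte markers and by 0 of 8 fibroblast, 0 of 6 endothelial and 0 of 6 smooth muscle markers. Single libraries went above 1 TPM. The fibroblast marker Dcn was at 1.62 TPM in SRT1720 2 and 2.62 TPM in Vehicle 1, and at most 0.41 TPM in the others. The smooth muscle marker Acta2 was at 4.26 TPM in Vehicle 3 and at most 0.25 TPM in the others. The leukocyte list summed to 1.04 to 11.8 TPM with SRT1720 and 1.98 to 16.3 TPM with vehicle. Of its defining genes, Cd3e was at 0 in every library and Ptprc reached at most 0.013 TPM. Cd68, a macrophage marker, was at 1.31, 0.73 and 1.03 TPM with SRT1720, against 1.45, 1.92 and 3.09 TPM with vehicle, lower in every SRT1720 library than in any Vehicle library (log2 fold change −0.62, SE 0.22, limma adjusted p = 0.36). Lyz2, a gene of myeloid cells, was at 10.5 TPM in SRT1720 2 and 14.3 TPM in Vehicle 1 and at 0 in the other 4 libraries. The part of these cells in the results below was not tested. Of 12 luminal urothelial markers, 6 were tested, 5 with log2 fold changes above 0 and 1 below. The groups did not overlap in 0 of these 6, against 19.9% of all genes tested. Among the luminal markers below the filter, Upk2 was higher in every SRT1720 library, near the floor at 0.29 ± 0.14 against 0.076 ± 0.0038 TPM. The basal keratin gene Krt5 split the libraries within each group, at 16.4, 616 and 1120 TPM with SRT1720, against 425, 9.61 and 741 TPM with vehicle. Of 7 basal markers, all tested, 6 had log2 fold changes above 0 and 1 below. The groups did not overlap in 0 of these 7, against 19.9% of all genes tested. Krt15 followed Krt5 only in part, at 0.38, 138 and 1.58 TPM with SRT1720, against 58.5, 0.31 and 1.12 TPM with vehicle. In bulk RNA, fewer cells of a type and less RNA per cell cannot be told apart.

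Upstream sequences of Idh2 and Idh1 are shown because these isozymes stand at the extremes of the results, the single lower mean and the widest range, and because the study asks about HIF. RefSeq windows on GRCm38.p6, 250 bases before a transcription start, matched 8 of the 9 members. Idh3a had no such window and is outside the motif counts. Where a gene had several starts the one farthest upstream was used. Each sequence runs 5′ to 3′ on the strand of the gene and ends before the first exon that GENCODE M21 annotates. Capitals mark the HIF core motif ACGTG or GCGTG on either strand.
Idh2, chr7:80115393-80115600, minus strand: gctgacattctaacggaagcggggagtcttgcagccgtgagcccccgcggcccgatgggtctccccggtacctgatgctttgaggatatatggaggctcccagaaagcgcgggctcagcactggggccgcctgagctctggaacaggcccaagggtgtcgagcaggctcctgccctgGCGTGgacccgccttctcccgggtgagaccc
Idh1, chr1:65186501-65186729, minus strand: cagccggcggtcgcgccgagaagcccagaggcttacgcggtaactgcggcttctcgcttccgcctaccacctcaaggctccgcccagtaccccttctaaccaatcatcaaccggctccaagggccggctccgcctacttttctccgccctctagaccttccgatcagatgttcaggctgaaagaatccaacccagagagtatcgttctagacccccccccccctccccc

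In the full windows, 6 of the 8 matched members held at least 1 HIF core on either strand, as did 38.6% of all 32851 RefSeq windows of that length. The windows of Cs and Idh1 held none. The full window of Mdh1 lay wholly within the gene that GENCODE M21 annotates. The windows of Suclg1, Mdh2, Idh2 and Idh1 had 127, 81, 208 and 229 bases before the annotated gene and the rest within it. These motif counts therefore include bases inside annotated genes. A match describes letters only. ACGTG was in 2 of the 8 windows against 16.6% of all, and GCGTG in 5 of the 8 against 28.2%. The other short motifs searched, CCAAT and GGGCGG, were each in 6 of the 8 windows, against 33.8% and 32.7% of all. A share above that of all windows was thus not particular to the HIF cores.

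No member passed the test between treatments. In limma with Benjamini-Hochberg adjustment over all genes tested, the adjusted p of the 9 members was 0.41 to 0.99, and 0% of the 9287 genes passed. At an unadjusted p under 0.05 limma counted 0 of the 9 members and 1153 of all genes (12.4%), and voom on the recovered reads also called 0 genes after adjustment. The SRT1720 libraries lay wholly to one side of the Vehicle libraries in 0 of the 9 members, against 19.9% of all genes tested. Of the members, 8 had a mean log2 fold change above 0 and Idh2 had one below, with a median of 0.23. Over all genes tested 54.8% lay above 0, and the median was 0.035. Leaving out 1 library moved the members' median to 0.095 without SRT1720 2, to 0.097 without Vehicle 2 and to 0.33 without Vehicle 1, with the other values in between.

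**Figure D1:**
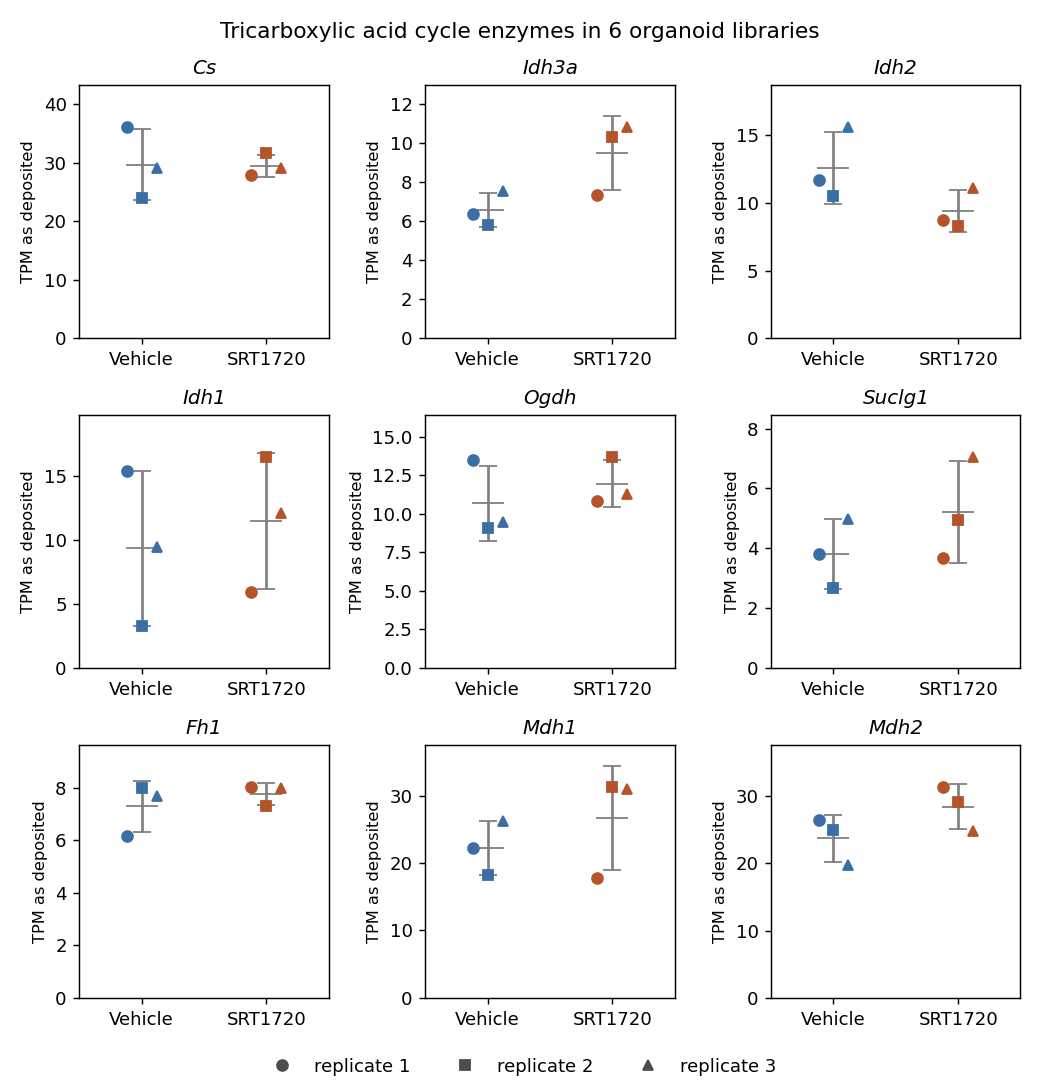
Levels of the 9 cycle enzymes in TPM as deposited, 1 panel per gene, with Vehicle on the left and SRT1720 on the right. Points are the 3 libraries of a group, their shapes mark the replicate number, and bars give the mean ± SD; the ranges of the groups overlap in every panel.

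Citrate synthase, encoded by Cs, joins acetyl-CoA to oxaloacetate and so starts the cycle. Cs was at 27.9, 31.6 and 29.0 TPM with SRT1720, against 36.1, 23.9 and 29.0 TPM with vehicle. Vehicle libraries held both the highest and the lowest value, and all SRT1720 libraries fell between them. The log2 fold change was 0.0088 (SE 0.20, limma adjusted p = 0.99), with a 95% interval from −0.46 to 0.48.

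Isocitrate dehydrogenase converts isocitrate to alpha-ketoglutarate. Idh3a encodes the catalytic subunit of the NAD-dependent mitochondrial enzyme, which works as part of the cycle proper. It was at 7.31, 10.3 and 10.8 TPM with SRT1720, against 6.39, 5.79 and 7.53 TPM with vehicle. The groups touched at a single point, since SRT1720 1 lay just under Vehicle 3, and the other 2 SRT1720 libraries lay above every Vehicle library. The log2 fold change of Idh3a was 0.46 (SE 0.20, 95% interval −0.0088 to 0.93), the highest of the 9, and it did not pass (limma adjusted p = 0.41). It remained above 0 when any single library was left out, between 0.37 and 0.62. With each column rescaled to the same sum, the Idh3a groups no longer overlapped, and the share over all genes was not computed for that setting. The Idh3a groups still overlapped under median-of-ratios scaling, quantile normalization and voom on the recovered reads.

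Idh2 encodes the NADP-dependent enzyme of mitochondria. It was at 8.78, 8.27 and 11.1 TPM with SRT1720, against 11.7, 10.5 and 15.6 TPM with vehicle. Only SRT1720 3 reached into the range of the Vehicle libraries, where it lay above Vehicle 2. Idh2 was the single member with a lower mean under SRT1720, at a log2 fold change of −0.38 (SE 0.21, 95% interval −0.87 to 0.11, limma adjusted p = 0.50). Without any single library the value stayed between −0.50 and −0.23.

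Idh1 encodes the NADP-dependent enzyme of cytosol and peroxisomes, a source of NADPH for lipid synthesis. It was at 5.92, 16.4 and 12.1 TPM with SRT1720, against 15.3, 3.25 and 9.41 TPM with vehicle. Its lowest values were in SRT1720 1 and Vehicle 2, the libraries with the lowest Krt5. The highest library exceeded the lowest by 5.06-fold, the widest range of the 9 members, where the median over 9257 tested genes above 0 in every library was 1.98-fold. The log2 fold change of Idh1 was 0.38 (SE 0.55, 95% interval −0.94 to 1.69, limma adjusted p = 0.84), and it turned to −0.16 without Vehicle 2.

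Ogdh encodes the decarboxylating subunit of the alpha-ketoglutarate dehydrogenase complex, which makes succinyl-CoA. It was at 10.9, 13.7 and 11.3 TPM with SRT1720, against 13.5, 9.05 and 9.49 TPM with vehicle. All SRT1720 libraries lay above Vehicle 2 and 3, while Vehicle 1 was close to the highest SRT1720 library. Suclg1 encodes the alpha subunit of succinyl-CoA ligase, which releases succinate and makes a nucleoside triphosphate. It was at 3.68, 4.93 and 7.05 TPM with SRT1720, against 3.80, 2.66 and 4.99 TPM with vehicle, the lowest mean level of the 9 members. The log2 fold changes were 0.16 (SE 0.20) for Ogdh and 0.36 (SE 0.27) for Suclg1, with limma adjusted p = 0.81 and 0.63.

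Fh1 encodes fumarate hydratase, which adds water to fumarate and also acts outside mitochondria. It was at 8.03, 7.29 and 7.99 TPM with SRT1720, against 6.16, 8.003 and 7.70 TPM with vehicle. These were the most even values of the 9 members, with the highest library 1.30-fold above the lowest. The log2 fold change of Fh1 was 0.087 (SE 0.16, 95% interval −0.29 to 0.46, limma adjusted p = 0.88), and it turned to −0.014 without Vehicle 1.

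Malate dehydrogenase interconverts malate and oxaloacetate, with a mitochondrial form from Mdh2 that closes the cycle and a cytosolic form from Mdh1. Together they serve the malate-aspartate shuttle, which moves reducing equivalents across the inner membrane. Mdh2 was at 31.3, 29.1 and 24.8 TPM with SRT1720, against 26.4, 25.0 and 19.7 TPM with vehicle. Only SRT1720 3 lay within the Vehicle range. Mdh1 was at 17.8, 31.3 and 31.0 TPM with SRT1720, against 22.2, 18.2 and 26.3 TPM with vehicle. Here SRT1720 1 was the lowest of all 6 libraries and the other 2 SRT1720 libraries were the highest. The log2 fold changes were 0.25 (SE 0.19) for Mdh2 and 0.23 (SE 0.27) for Mdh1, with limma adjusted p = 0.63 and 0.80.

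**Figure D2:**
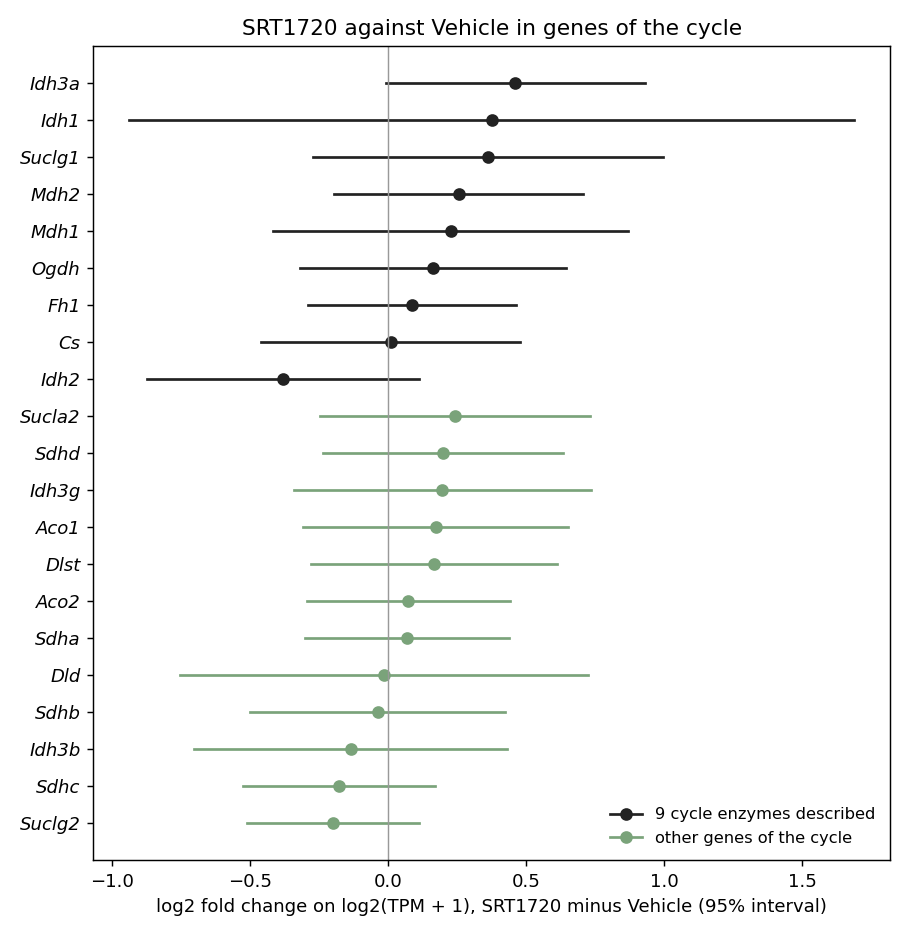
Log2 fold changes of 21 tested genes of the cycle, SRT1720 minus Vehicle on log2(TPM + 1), as points with 95% intervals from limma; the 9 enzymes described are dark and the other 12 genes green. Every interval includes 0, and that of Idh3a reaches from −0.0088 to 0.93.

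Ratios of isozymes within a library were compared on log2(TPM + 1), and 3 were tested with exact two-sided permutation tests, in which 3 libraries against 3 cannot give a p below 0.1. The plain ratio of Idh3a to Idh2 was 0.83, 1.25 and 0.97 with SRT1720, against 0.55, 0.55 and 0.48 with vehicle. All SRT1720 libraries lay above all Vehicle libraries, so RNA of this 1 subunit of the NAD-dependent enzyme was higher relative to Idh2 RNA. Of the other subunits, Idh3b had a log2 fold change of −0.14 and Idh3g one of 0.20. Their ratios to Idh2 were not tested. The difference of the log2 ratio was 0.84 (0.0061 ± 0.27 against −0.84 ± 0.11, n = 3, exact permutation p = 0.1, adjusted p = 0.3 over the 3 ratios). It was 0.70 to 0.96 without any single library. Of the 36 possible ratios of 2 members, 5 (13.9%) separated the groups, namely Idh3a to Idh2, Cs to Idh3a, Cs to Ogdh, Idh2 to Suclg1 and Idh2 to Mdh1. The share over ratios of all genes tested was not computed, and 19.9% of single genes tested separated the groups. A separated ratio is thus not unusual in these data.

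The other ratios overlapped between groups. The plain ratio of Idh2 to Idh1 was 1.48, 0.50 and 0.92 with SRT1720, against 0.76, 3.23 and 1.66 with vehicle, with a log2 difference of −0.76 (exact permutation p = 0.4, n = 3). Vehicle 2, with the least Idh1, had the highest ratio. That of Mdh2 to Mdh1 was 1.76, 0.93 and 0.80 with SRT1720, against 1.19, 1.37 and 0.75 with vehicle. In this case SRT1720 1 and Vehicle 2 held the highest ratios, and the log2 difference was 0.028 (exact permutation p = 0.9, n = 3).

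**Figure D3:**
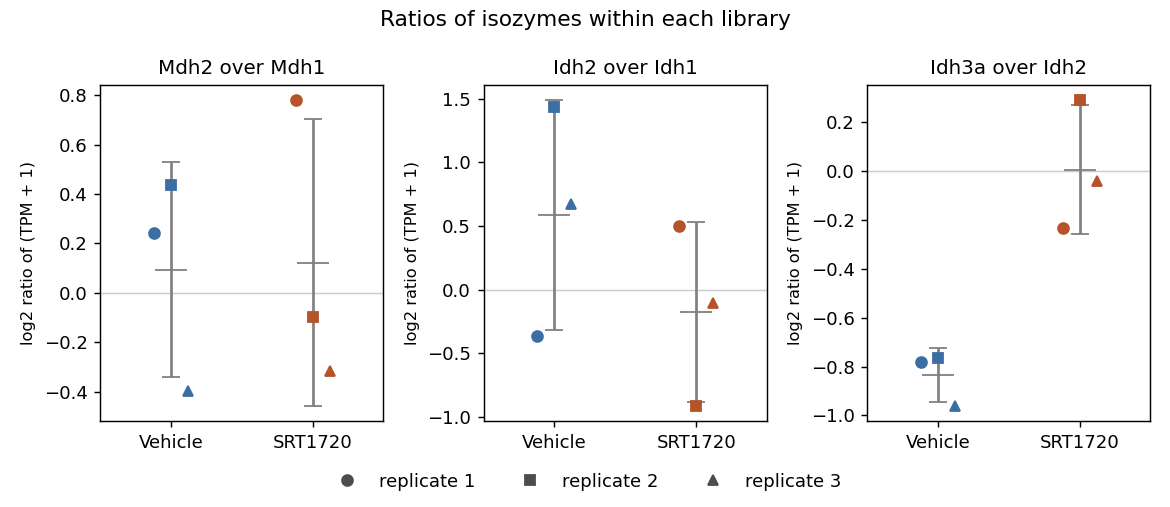
Log2 ratios of (TPM + 1) for Mdh2 over Mdh1, Idh2 over Idh1 and Idh3a over Idh2 in each library, with Vehicle left and SRT1720 right; points are libraries, shapes mark replicate numbers and bars give the mean ± SD. The groups separate in the panel of Idh3a over Idh2 and overlap in the other 2.

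The members did not share one pattern over the libraries. Vehicle 2 held the lowest value of 5 members, Cs, Idh3a, Idh1, Ogdh and Suclg1, and the highest of none, and SRT1720 2 held the highest value of 3. Each member's most similar other member, by Pearson r of log2(TPM + 1) over the 6 libraries, was Idh1 for Cs (r = 0.89), Suclg1 for Idh3a (r = 0.88), Suclg1 for Mdh1 (r = 0.87) and Cs for Ogdh (r = 0.85). Idh2 and Fh1 had no close partner, with best values of r = 0.18 and r = 0.21. The 6 libraries share treatments within groups, so these values are a description.

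Idh2 and Mdh2, both mitochondrial, ran opposite to each other. Vehicle 3 had the most Idh2 and the least Mdh2, and SRT1720 1 and 2 had the least Idh2 and the most Mdh2. Pearson r was −0.94 (exact permutation p = 0.015, adjusted p = 0.14 over 36 relations) and Spearman rho −0.77 (exact permutation p = 0.10, adjusted p = 0.37). Without the 2 libraries farthest from the median of Idh2, r was −0.83. The relation did not pass the adjustment. With treatment means removed, r over the 6 libraries was −0.89. Cs and Fh1 also ran opposite, with r = −0.86 (exact permutation p = 0.0069, adjusted p = 0.14) and rho = −0.94 (exact permutation p = 0.017, adjusted p = 0.30), and r = −0.94 both without the 2 libraries farthest from the median of Cs and with treatment means removed. The permutations take the 6 libraries as exchangeable, though they fall in 2 treatments and resemble each other across them. These relations are therefore a description as well.

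**Figure D4:**
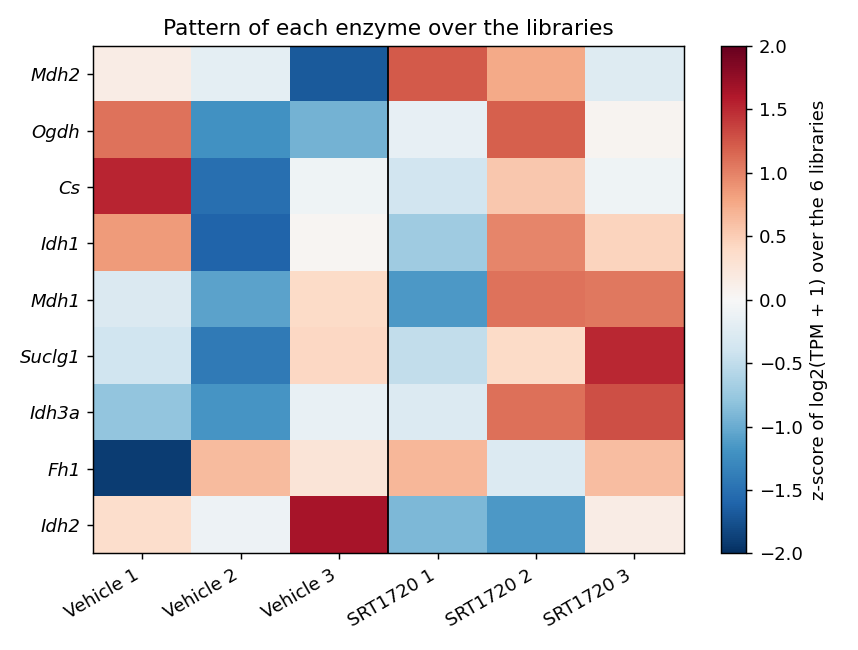
Z-scores of log2(TPM + 1) of each member over the 6 libraries, red above and blue below the mean of the gene, with Vehicle left of the line and SRT1720 right. Vehicle 2 is the lowest library for 5 members, while the rows of Idh2 and Mdh2 show opposite colors in Vehicle 3.

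Over all genes tested, the 5 most like the mean z-score of the members were Jpt1, Ehd2, Pimreg, Arpc4 and Sac3d1, with r = 0.990 to 0.998 over the 6 libraries. They are given as a description, since they were picked as the highest of 9287. Jpt1, the closest (r = 0.998), was at 12.6, 24.8 and 26.3 TPM with SRT1720, against 16.9, 6.16 and 15.6 TPM with vehicle.

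The other genes of the cycle numbered 13, of which 12 were tested and Ogdhl, a relative of Ogdh, stayed below the filter. None passed limma's adjusted test, 7 had log2 fold changes above 0 and 5 below, and the median was 0.071. In 2 of the 12 the groups did not overlap, both lower with SRT1720. Over all genes tested, 19.9% did not overlap in either direction and 7.75% did so with SRT1720 lower. Suclg2, the beta subunit of the GTP-forming succinyl-CoA ligase, was at 3.82, 3.85 and 3.84 TPM with SRT1720, against 4.999, 4.39 and 4.31 TPM with vehicle. Sdhc, a membrane anchor of succinate dehydrogenase, was at 12.05, 11.5 and 11.7 TPM with SRT1720, against 14.5, 12.9 and 13.0 TPM with vehicle. Their log2 fold changes were −0.20 (SE 0.13, limma adjusted p = 0.58) and −0.18 (SE 0.15, limma adjusted p = 0.67).

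Partner subunits of the members, named after their values were seen, differed in the direction of the mean, and none passed the test. For isocitrate dehydrogenase, Idh3b and Idh3g, the partners of Idh3a, had log2 fold changes of −0.14 (SE 0.24) and 0.20 (SE 0.23). For succinyl-CoA ligase, Sucla2, the beta subunit of the ATP-forming enzyme, was at 4.65 ± 0.996 against 3.79 ± 0.93 TPM, beside the lower Suclg2. Of the partners of Ogdh, Dlst was at 5.15 ± 0.93 against 4.49 ± 0.87 TPM. Dld, a subunit that several dehydrogenase complexes share, was at 19.6, 10.8 and 11.6 TPM with SRT1720, against 11.6, 19.8 and 11.02 TPM with vehicle. Its high libraries were SRT1720 1 and Vehicle 2, those with the lowest Idh1 and Krt5.

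Genes that feed the cycle or draw from it were counted in full. Of 18 genes of fuel entry and exit, 15 were tested, 0 passed, and 2 did not overlap, both higher with SRT1720. Over all genes tested, 19.9% did not overlap in either direction and 12.1% did so with SRT1720 higher. Me2, a mitochondrial malic enzyme that turns malate into pyruvate, was at 11.02, 11.5 and 11.9 TPM with SRT1720, against 6.52, 5.56 and 6.57 TPM with vehicle. Every SRT1720 library was well above every Vehicle library, with a log2 fold change of 0.79 (SE 0.15, limma adjusted p = 0.20). Pdhx, a structural subunit of the pyruvate dehydrogenase complex, was at 3.67, 3.65 and 2.23 TPM against 2.04, 1.53 and 1.36 TPM, with a log2 fold change of 0.65 (SE 0.20, limma adjusted p = 0.33).

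In each of the next 3 lists 1 gene had groups that did not overlap, higher with SRT1720, of 5, 9 and 6 genes tested. Over all genes tested the share was 19.9% in either direction and 12.1% with SRT1720 higher. Among 7 carriers of cycle metabolites, 5 were tested and 0 passed. Slc25a10, which exchanges malate and succinate for phosphate, was at 4.42, 7.82 and 4.53 TPM with SRT1720, against 3.83, 1.32 and 1.41 TPM with vehicle, the carrier whose groups did not overlap. Its log2 fold change was 1.10 (SE 0.34, limma adjusted p = 0.33). Of 13 cofactor and assembly genes, 9 were tested, and Sdhaf2, an assembly factor of succinate dehydrogenase, did not overlap, at 5.13 ± 0.51 against 3.71 ± 0.36 TPM (limma adjusted p = 0.36). Of 9 regulators of mitochondrial biogenesis, 6 were tested, and Tfam, which packages and transcribes mitochondrial DNA, did not overlap, at 5.16 ± 0.89 against 3.77 ± 0.21 TPM (limma adjusted p = 0.41).

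The order of levels among members depended on the length used. By deposited TPM over the 6 libraries the order was Cs (29.6), Mdh2 (26.1), Mdh1 (24.5), Ogdh (11.3), Idh2 (11.002), Idh1 (10.4), Idh3a (8.03), Fh1 (7.53) and Suclg1 (4.52). The length recovered behind the TPM of Cs, Idh1 and Ogdh equaled the sum of all distinct exons in GENCODE M21, 5929, 4520 and 8173 bases, in which exons shared by isoforms with other ends are added again. For the other 6 members the recovered length exceeded that sum, as for Idh3a with 7721 against 6794 bases and Idh2 with 5774 against 5166 bases. Over 11300 genes where the definitions differ, 19.6% equaled the sum of distinct exons and 0.12% the merged exons, so the lengths used are known only in part. For Cs, Idh1 and Ogdh, merging overlapping exons gave 5779, 2771 and 5456 bases. In recovered reads per kilobase of merged exons and per 1000000 reads, the order was Mdh2 (113), Mdh1 (87.1), Cs (78.3), Idh2 (63.3), Idh1 (43.8), Ogdh (43.7), Idh3a (31.5), Fh1 (28.5) and Suclg1 (15.3). On that scale Mdh2 was at 123 ± 14.4 with SRT1720 and 103 ± 15.5 with vehicle, and Cs was at 78.1 ± 5.09 and 78.5 ± 16.1. Neighbors such as Idh1 and Ogdh differed by far less than their spread over libraries.

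Among GENCODE M21 transcripts of other genes, only those of Csl and Gm48254 matched a member at 90% identity or more over at least 200 bases, both matching Cs. Csl was at 0 to 0.078 TPM and Gm48254 had no row in the table. Genes on the opposite strand that overlap a member, Kmo at Fh1 and Wdpcp at Mdh1, reached at most 0.0069 and 0.21 TPM. On GRCm38, Idh3a (ENSMUSG00000032279) lies on chromosome 9 from 54586334 to 54604661, Idh2 (ENSMUSG00000030541) on chromosome 7 from 80094846 to 80115392, and Idh1 (ENSMUSG00000025950) on chromosome 1 from 65158616 to 65186500. Mdh2 (ENSMUSG00000019179) lies on chromosome 5 from 135778480 to 135790398, Mdh1 (ENSMUSG00000020321) on chromosome 11 from 21556787 to 21572367, and Cs (ENSMUSG00000005683) on chromosome 10 from 128337734 to 128362479. Ogdh (ENSMUSG00000020456) lies on chromosome 11 from 6291633 to 6356642, Fh1 (ENSMUSG00000026526) on chromosome 1 from 175600374 to 175625635, and Suclg1 (ENSMUSG00000052738) on chromosome 6 from 73248382 to 73276911.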

How the data were processed

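RNA of 6 organoid samples, 3 per treatment, was sequenced, and samples were grouped by their labels. The authors deposited 1 table of TPM values per gene ID, and the submitters' processing notes name STAR 2.6.0 and the GRCm38 build; for the counting step and gene lengths the sources used here give nothing. The columns sum to 161231 to 171577, below the 1000000 that TPM adds up to. Low values are whole multiples of 1 read per gene length, so reads and lengths were recovered for 27708 of 27713 IDs above 0 (tolerance 0.01). Symbols were matched for 51633 of 51912 IDs.

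Genes averaging 1 TPM or more over the 6 libraries were compared with limma 3.58.1 (R 4.3.3, mean-variance trend) on log2(TPM + 1), with Benjamini-Hochberg adjustment over all 9287 genes and a threshold of 0.05, after tests on simulated data. Fold changes on this scale understate those of low genes. Exact permutation tests of ratios were run in R, and those of correlations in Python 3.11.15 with numpy 2.4.6 and scipy 1.17.1. Similar transcripts were searched with blastn 2.17.0. In each of the 15 pairs of libraries the recovered reads differed by more than sampling noise (chi-square of at least 79.4 per degree of freedom). The rule was to name all 9 members, and other genes of the pathway lists where they passed or where groups did not overlap; partner subunits and marker genes were named outside it. Members and lists were chosen with earlier results of these data known.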

Additional observations from a re-analysis of the deposited data

How the results depend on the processing

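No gene passed limma's adjusted threshold under any of the 16 alternatives, and Idh3a, Idh2, Ogdh, Suclg1, Mdh1 and Mdh2 kept their direction in each that gave a value (Suclg1 has none when a mean of 5 TPM was required). The count at an unadjusted p under 0.05 was 2028 with no filter, 498 when a mean of 5 TPM was required, 2056 with library weights, and 523 to 1057 without 1 library. Non-overlapping members numbered 1 with columns rescaled to one sum, 3 without both SRT1720 1 and Vehicle 2, and 0 to 2 without 1 library. The share over all genes was not computed in these settings, and groups of fewer libraries separate more easily by chance. These counts are therefore not read as a result about the members. The log2 fold change of Cs turned to -0.02666 under median-of-ratios scaling, -0.01788 under quantile normalization, -0.02109 with library weights and -0.0937 without both libraries, and ran from -0.1315 to 0.1549 without 1 library. The same ranges were -0.1633 to 0.807 for Idh1 and -0.01443 to 0.1505 for Fh1. The Mdh2 over Mdh1 difference was -0.1754 with library weights, -0.1298 without both libraries and -0.3002 to 0.2465 without 1 library. The cause was not tested. The replicate block gave 0 calls, 1133 genes at an unadjusted p under 0.05 and a log2 fold change of 0.46 for Idh3a (limma adjusted p = 0.42). Same-numbered libraries deviated from their group means with correlations of -0.1972, -0.2624 and 0.7877, so the numbers were not taken as pairs. Only the libraries numbered 3 correlated best with their own number. SRT1720 1 correlated best with Vehicle 2 (0.7212) and SRT1720 2 with Vehicle 1 (0.676). No other pairing was fitted, and similarity between libraries across treatments is not modeled in these tests. Voom on recovered reads, added after the data were seen, called 0 genes. Count-model tests on the recovered reads were not run, since the deposited unit is TPM.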
